A study of Mus musculus with 36 samples.

Results

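The mRNA of the left ventricle of sham-operated mice was compared between 1 day and 1 week after the operation, in 3 libraries at each stage. These 6 libraries were chosen by their labels (mRNA, sham, 1 day or 1 week) from the 36 samples of a series in which myocardial infarction (MI) was produced by tying off the left anterior descending coronary artery. The animals of every group were male C57BL/6 mice operated at 8 weeks of age, and in sham mice the coronary artery was not closed. Each library was made from RNA pooled from left ventricles, and how many animals it holds is not given, so the spread between libraries is a spread between pools. The 3 sham libraries of 8 weeks served as a further reference stage. The 6 MI libraries of 1 day and 1 week were compared with sham in 1 test, whose model also held the 3 MI libraries of 8 weeks. All MI libraries also entered an alternative model and an alternative filter. Unoperated hearts were not analysed here, so the effect of the operation and the passage of time since it cannot be told apart from any other difference between the stages, such as age.

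A sham operation on the heart includes anaesthesia, opening of the chest and handling of the organ, and tissue injury of this kind is known to start an acute phase response, in which cells make secreted defence proteins, and the release of chemokines, which recruit leukocytes. Cells that make many secreted proteins depend on the chaperones of the endoplasmic reticulum (ER). When unfolded proteins accumulate there, the unfolded protein response raises the genes for these chaperones. Repair of an injured heart later turns to the extracellular matrix, the collagen and elastin scaffold laid down mainly by fibroblasts.

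In short, the sham ventricle at 1 day had higher mRNA of ER chaperones, of the secreted proteins osteopontin (Spp1), lipocalin 2 (Lcn2) and Serpina3n, and of metallothioneins than at 1 week. It had lower mRNA of collagens, elastin and other matrix genes. Several immediate early genes were lower too, but their count fell from 6 to 1 without some single libraries. Levels are FPKM, fragments of a gene scaled to its transcript length and to the mapped fragments of the library, and changes are log2 fold changes of FPKM + 1, which are smaller than the ratio of FPKM for genes of low level. A gene was called where the Benjamini-Hochberg adjusted p of limma, a linear model with a shared estimate of the spread over genes, was below 0.05. Of 10857 genes tested, 923 (8.50%) were higher and 355 (3.27%) lower at 1 day than at 1 week. Each count of a gene list against 1 week is to be read beside these shares. Most calls were small, with a median size of 0.299 log2 among the higher and 0.405 among the lower genes. A change of more than 1 log2 was reached by 35 of the higher and 23 of the lower genes. The split between directions depended on the scaling of the libraries. As deposited, 72.2% of the calls were higher at 1 day, and after quantile normalization, median-ratio scaling or in the normalized values of the authors this share was 49.5%, 49.9% and 49.7%. The median change over all tested genes was 0.06 as deposited and at most 0.01 after these scalings.

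The libraries were alike in depth and in overall profile. The step size of low FPKM values gave estimates of 32400000 to 34300000 mapped fragments for the libraries of 1 day. The estimates were 33400000 to 34300000 for 1 week and 29900000 to 35300000 for the 8 week libraries. Correlations between sham libraries across genes on the log2 scale lay between 0.986 and 0.996. The 3 stages separated on the first principal components, which held 40.4% and 24% of the variance, and no library fell among those of another stage. Markers of ventricular cardiomyocytes had a summed level of 41570 to 44624 FPKM at 1 day and of 44864 to 50517 FPKM at 1 week, and all 15 were above 0 in every sham library, as the labelled tissue requires. Replicate 2 of 1 week had the lowest sums of that stage for fibroblast, endothelial, macrophage and matrix genes. In bulk tissue, fewer cells of a type and less RNA per cell cannot be told apart.

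**Figure D1:**
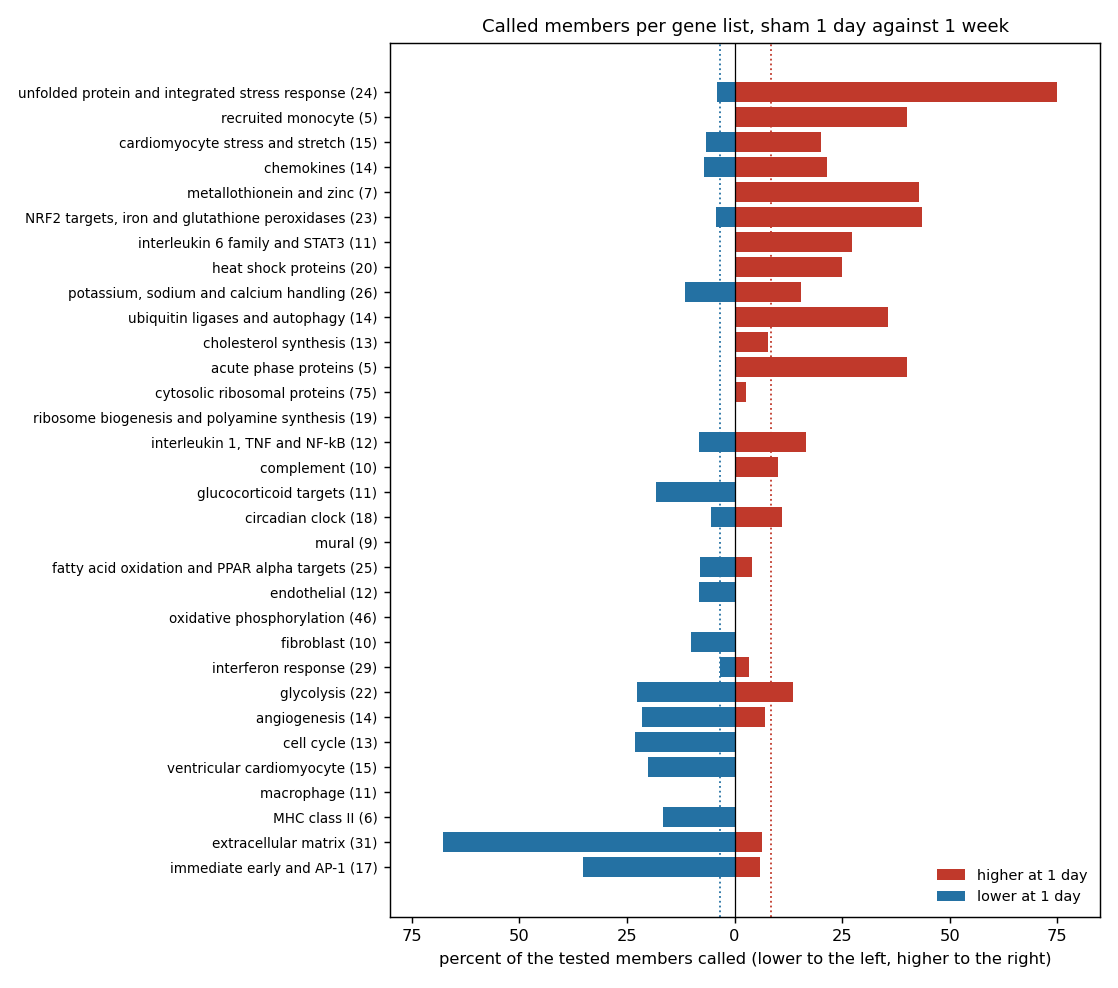
Percent of the tested members of each gene list that were higher (to the right) or lower (to the left) at 1 day than at 1 week in sham ventricles, for lists with at least 5 tested members, whose number is in brackets. The dotted lines are the shares over all 10857 tested genes, 8.50% higher and 3.27% lower; 18 of 24 genes of the unfolded protein list were higher and 21 of 31 matrix genes lower.

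Among the lists used here, the clearest group of higher genes was the ER chaperone set. The lists were chosen with earlier results of these data known, so their counts describe and do not test. Of 24 tested genes of the unfolded protein and integrated stress response, 18 were higher and 1 was lower at 1 day than at 1 week, against 8.50% and 3.27% of all genes. Their median log2 fold change was 0.99, beside 0.06 over all tested genes. The count of higher genes lay between 18 and 20 when each library was left out in turn, and was 18 under each of the other scalings. It was 17 when the infarct libraries were added to the model. Against the sham libraries of 8 weeks, 20 of the 24 were higher and 1 lower. In that comparison, which shares the 1 day libraries with the first, 2742 genes (25.3%) were higher and 383 (3.53%) lower, with a median over all genes of 0.12.

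Sdf2l1, an ER protein that works with the chaperone BiP, stood at 22.9, 21.4 and 33.0 FPKM in the libraries of 1 day. It stood at 3.49, 2.47 and 3.82 FPKM at 1 week and at 8.27, 4.83 and 6.04 FPKM at 8 weeks. All libraries of 1 day lay above all others, and the mean was 7.91-fold that of 1 week (log2 fold change 2.64 ± 0.19 SE, adjusted p = 2e-05). Manf, a secreted protein of the stressed ER (chr9:106888753-106891938), was at 53.4, 43.2 and 64.0 FPKM at 1 day and at 10.1, 9.91 and 11.5 FPKM at 1 week. Its level at 8 weeks was intermediate, at 24.7, 16.6 and 18.7 FPKM. The rise over 1 week was 2.23 ± 0.15 log2.

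Hspa5, which encodes BiP, the central ER chaperone, stood at 461 ± 85.3 FPKM at 1 day, 161 ± 14.9 at 1 week and 264 ± 24.7 at 8 weeks (mean ± s.d., n = 3), with the 1 day mean 2.87-fold that of 1 week. Hsp90b1, the ER form of heat shock protein 90, was at 262 ± 49.2 FPKM at 1 day against 108 ± 7.95 at 1 week (1.26 log2). Further chaperones and disulphide isomerases of the ER followed in the same direction. Pdia4 rose by 1.87, Creld2 by 1.84, Hyou1 by 1.67, Pdia3 and Pdia6 by 0.99, Dnajb11 by 0.84, Calr (calreticulin) by 0.83 and Canx (calnexin) by 0.46 log2. The Hspa5, Manf and Hyou1 levels at 8 weeks lay between those of the other stages, so the lowest of the 3 stages was 1 week.

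Regulators of the response were also higher. Xbp1, the transcription factor whose spliced form drives chaperone genes, was at 36.5 ± 3.37 FPKM at 1 day and 16.6 ± 0.902 at 1 week (1.09 log2). Herpud1, which takes part in the disposal of misfolded ER proteins, rose by 1.06, and Edem1, of the same process, by 0.55. In the branch that slows translation, Atf4 was at 33.7 ± 1.69 against 22.8 ± 1.98 FPKM (0.54 log2) and its target Ddit3 (CHOP) at 18.8 ± 1.79 against 7.85 ± 2.03 FPKM (1.18 log2). Other genes of that branch were not called. Ppp1r15a changed by 0.10, Trib3 by 0.23, Atf5 by 0.27 and Mthfd2 by 0.31 log2, with adjusted p of 0.45, 0.0742, 0.0503 and 0.101. Chac1, a glutathione-degrading enzyme of the same branch, was the lower gene, at 0.850 ± 0.0168 FPKM at 1 day against 1.92 ± 0.576 at 1 week (-0.64 log2, limma adjusted p = 0.0156).

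Of the called genes of this list, 17 have a promoter sequence. In 6 of these 17 the promoter holds the ER stress element, the sequence bound by the factors of the unfolded protein response. It was searched as CCAAT, then 9 bases of any kind, then CCACG, on both strands, in RefSeq windows from 250 bases before to 50 bases after the start of a gene (GRCm38.p6). The matches with 20 bases on either side are shown because these letters, in capitals, are what the promoters share. On the opposite strand the element reads CGTGG first and ATTGG last.
Hspa5: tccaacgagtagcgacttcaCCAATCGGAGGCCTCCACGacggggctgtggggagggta
Pdia6: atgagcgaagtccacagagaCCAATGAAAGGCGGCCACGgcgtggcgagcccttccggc
Canx: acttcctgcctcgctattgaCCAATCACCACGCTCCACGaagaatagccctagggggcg
Calr: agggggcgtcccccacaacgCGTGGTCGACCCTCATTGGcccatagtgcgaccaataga
Creld2: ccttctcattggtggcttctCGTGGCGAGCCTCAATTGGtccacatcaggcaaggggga
Hsp90b1: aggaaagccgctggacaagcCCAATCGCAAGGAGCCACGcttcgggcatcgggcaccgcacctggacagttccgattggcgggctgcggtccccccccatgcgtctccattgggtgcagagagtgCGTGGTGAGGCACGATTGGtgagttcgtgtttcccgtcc

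The windows are at chr2:34772005-34772063 (Hspa5, plus strand), chr12:17266471-17266529 (Pdia6, plus), chr11:50325780-50325838 (Canx, minus), chr8:84847055-84847113 (Calr, minus), chr15:88819500-88819558 (Creld2, plus) and chr10:86705513-86705676 (Hsp90b1, minus). The match in Hspa5 lay 65 to 47 bases before the start, and the others between 212 and 80 bases before it. The element was present in 6 of 22 list members with a promoter sequence and in 35 of 27025 promoters (0.13%). Over all tested genes, 14 carried it, of which 11 were higher and 0 lower at 1 day, while 8.63% of the 8692 tested genes with a promoter sequence were higher. Of these 14 genes, 8 were outside the list, and 5 of the 8 were higher. They are named here after their values were seen: Syvn1, an ER ubiquitin ligase (15.3 ± 2.78 against 5.10 ± 0.342 FPKM), Dnajc3, an ER co-chaperone (19.5 ± 3.33 against 8.32 ± 0.736), Alg12, a mannosyltransferase of the ER (4.24 ± 0.483 against 2.51 ± 0.198), Ero1lb, an ER oxidase (1.26 ± 0.221 against 0.809 ± 0.117), and Acacb, acetyl-CoA carboxylase 2 (30.4 ± 1.76 against 25.8 ± 0.654). Other motifs were searched for other lists. Among tested genes that carry them, the share of higher genes lay between 5.41% (heat shock element) and 15% (D-box, searched for clock genes). A match describes the letters of a promoter and not its use in these hearts.

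**Figure D2:**
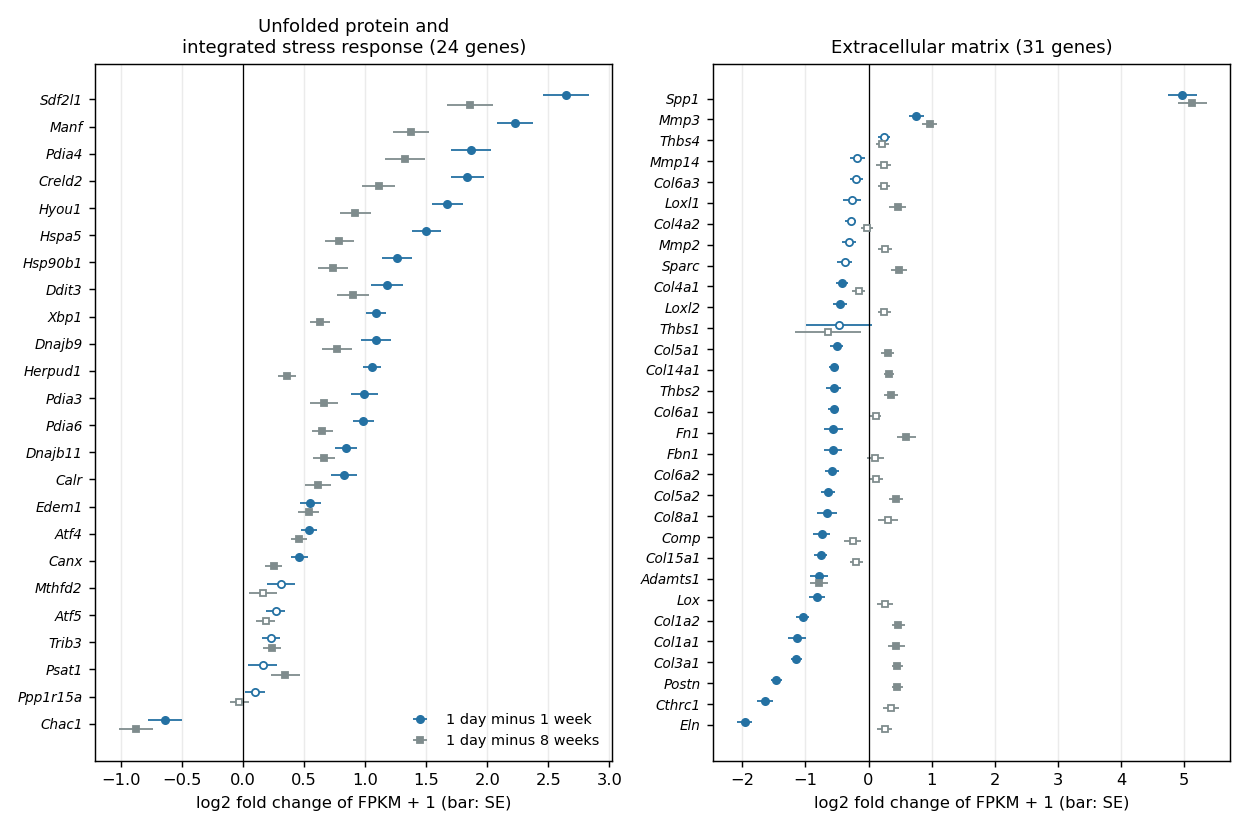
Log2 fold change of FPKM + 1 with its SE for the tested genes of the unfolded protein and integrated stress response (left) and of the extracellular matrix (right). Circles are 1 day minus 1 week and squares 1 day minus 8 weeks in sham ventricles, filled where limma called the gene; ER genes lie mostly above 0 in both, while matrix genes lie mostly below 0 against 1 week and near or above 0 against 8 weeks.

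Of 20 cytosolic and mitochondrial heat shock genes, 5 were higher and 0 lower at 1 day, with a median of 0.15 log2. The number of higher genes lay between 2 and 6 when a library was left out. Hspb1, a small heat shock protein, was at 237 ± 24.2 FPKM at 1 day and 159 ± 16.4 at 1 week (0.58 log2), and its call was lost without 1 day replicate 2. The neighbouring copies Hspa1a and Hspa1b share nearly all their sequence, so their values of 0.54 and 0.59 log2 are uncertain, and Hspa1a lost its call without any 1 of the 6 libraries. Hspa8 and Hspd1, which are abundant in heart, were not called (0.15 and -0.01 log2, limma adjusted p = 0.372 and 0.967).

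Spp1, which encodes osteopontin, a secreted phosphoprotein of inflamed and healing tissue, had the largest rise (chr5:104435111-104441053). Its level was 26.1, 64.8 and 45.8 FPKM at 1 day, 0.403, 0.333 and 0.463 FPKM at 1 week and 0.262, 0.205 and 0.290 FPKM at 8 weeks. The lowest library of 1 day was far above the highest of the other stages. The mean of 1 day was 114-fold that of 1 week (4.96 ± 0.232 log2, adjusted p = 2.54e-06). Lcn2, an iron-siderophore-binding protein of the acute phase that neutrophils also store (chr2:32384637-32387739), was at 40.8, 45.8 and 33.1 FPKM at 1 day. It was at 1.46, 1.42 and 2.76 FPKM at 1 week and at 1.71, 1.15 and 2.71 FPKM at 8 weeks, so that the libraries of both later stages overlapped. The rise over 1 week was 21.2-fold (3.85 log2).

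Serpina3n, a secreted protease inhibitor of the acute phase (chr12:104406646-104414334), was at 19.4, 26.3 and 22.4 FPKM at 1 day and at 3.87, 2.72 and 3.23 FPKM at 1 week. This is a 6.93-fold difference (2.47 log2), with the reservation that Serpina3 genes are near copies that can share reads. Timp1, an inhibitor of matrix metalloproteinases that lies within Syn1, was at 11.1, 15.5 and 9.58 FPKM at 1 day and at 2.53, 1.64 and 4.38 FPKM at 1 week (1.80 log2). Lrg1, a secreted leucine-rich glycoprotein, rose 3.46-fold (1.72 log2). Lgals3 (galectin 3), a carbohydrate-binding protein of macrophages and injured tissue, was at 3.47, 7.19 and 6.13 FPKM at 1 day and at 1.33, 1.20 and 1.14 FPKM at 1 week (1.52 log2). The calls of Spp1, Lcn2, Serpina3n, Timp1, Lrg1 and Lgals3 remained without each of the 6 libraries. Of the 5 tested acute phase proteins, Lcn2 and Serpina3n were called higher and the other 3 were not called. C3 was at 16.4 ± 3.4 against 15.9 ± 3.04 FPKM, and ceruloplasmin (Cp) at 21.7 ± 2.02 against 19.9 ± 2.24 FPKM.

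**Figure D3:**
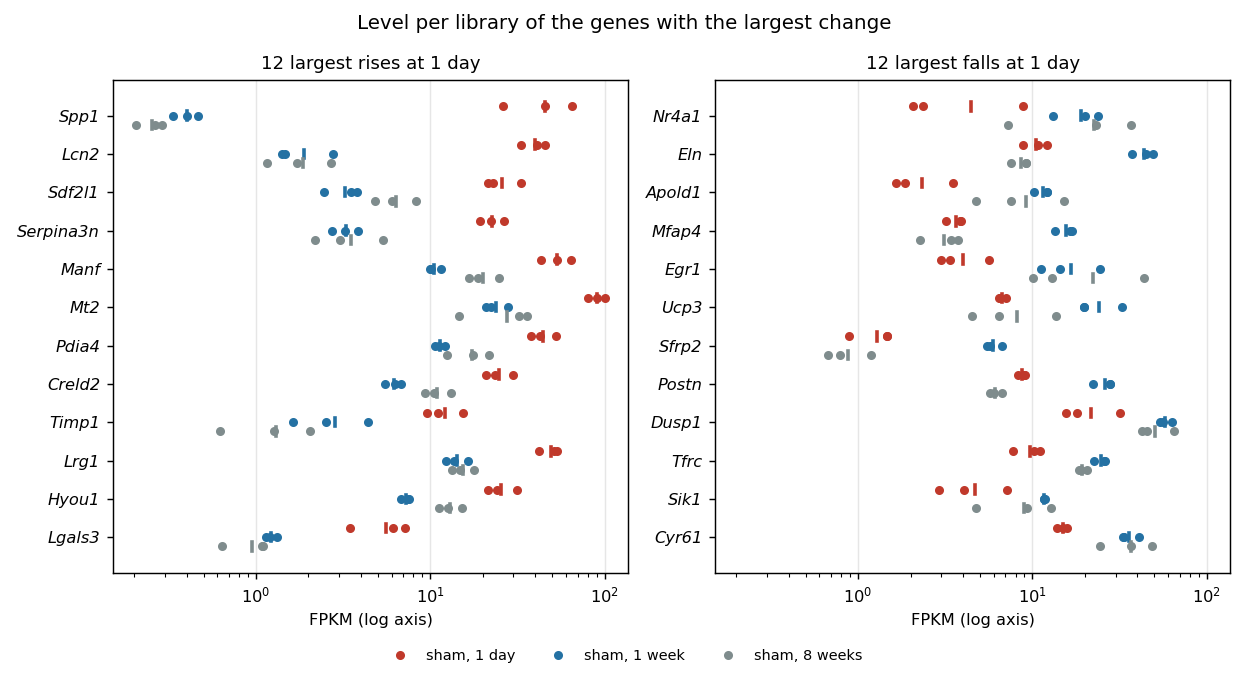
FPKM on a log axis in each sham library for the 12 largest rises (left) and the 12 largest falls (right) at 1 day against 1 week. Each point is a library and each short line the mean of 3; the points of 1 day (red) and 1 week (blue) do not overlap for any of these genes, which the choice of genes required, and the 8 week points (grey) lie near those of 1 day for Eln, Mfap4 and Sfrp2 and near those of 1 week for Spp1 and Lcn2.

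The lymphocyte markers and most neutrophil markers were below the level required for the test. Most macrophage markers passed it. Of 13 neutrophil markers 12 were in the table and 4 were tested, of which Lcn2 alone was called against 1 week. The other 3 tested, S100a8, S100a9 and Retnlg, were not called. With weaker filters more were tested, and 3 were higher with no filter and 4 with a filter over all 18 libraries, with 0 lower. Over all genes, 877 of 16407 and 976 of 12858 were higher under these filters. The filter over 18 libraries can admit genes through the infarct libraries alone. Against 8 weeks 3 of the 4 were higher, where 25.3% of all genes were. Csf3r, the receptor of the neutrophil growth factor G-CSF, was at 0.757, 1.81 and 1.02 FPKM at 1 day. At 1 week it was at 0.553, 0.551 and 0.567 FPKM. The protease Mmp9 was at 0.501, 1.12 and 0.910 FPKM against 0.359, 0.324 and 0.308 FPKM. Both were without overlap and below the level required for the test. They are single markers and do not stand for the rest of the list. The summed level of the 12 was 59.8 to 85.1 FPKM at 1 day and 16.7 to 41.6 FPKM at 1 week. Without Lcn2 the sums were 19.0, 39.3 and 28.4 FPKM at 1 day and 22.9, 15.3 and 38.9 FPKM at 1 week, which overlapped. Recruited monocyte markers summed to 9.77 to 15.6 FPKM at 1 day and 6.50 to 11.1 FPKM at 1 week. In this list 2 of 5 tested genes were higher, Chil3, a chitinase-like protein (1.94 ± 0.739 against 0.190 ± 0.0952 FPKM), and Ccr2, the receptor of the chemokine Ccl2 (1.82 ± 0.657 against 0.778 ± 0.0848 FPKM). Both passed the filter only through the 1 day libraries, where they were high. The filter thus favours this count, which is no test of the list. Ccr2 lost its call without any 1 of 4 libraries (1 day replicates 2 and 3 and 1 week replicates 2 and 3), with adjusted p up to 0.0782 by limma. Of 11 macrophage markers 0 were called by limma and 0 had an unadjusted p below 0.05, with sums of 104 to 146 FPKM at 1 day and 106 to 180 at 1 week. Without 1 week replicate 2, which had the lowest sum of its stage, 3 were lower at 1 day, C1qb among them (-0.57 log2, limma adjusted p = 0.0429). All 9 T and NK cell markers and all 5 B cell markers were below the level required for the test. The part of leukocyte numbers in the rises above was not tested.

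Among chemokines, 3 of 14 were higher and 1 lower. Ccl2 and Ccl7, which attract monocytes through Ccr2, were at 8.77, 13 and 10.4 FPKM and at 7.21, 11.9 and 10.4 FPKM at 1 day. At 1 week Ccl2 was at 5.84, 3.19 and 3.99 FPKM, and at 8 weeks at 1.23, 2.53 and 1.36 FPKM, so its level was lower at each later stage. The rises over 1 week were 1.15 log2 for Ccl2 and 1.17 log2 for Ccl7. Cxcl5, which attracts neutrophils, was at 2.10 ± 0.442 FPKM at 1 day and 0.0809 ± 0.0277 FPKM at 1 week, or about 118 and 4.6 fragments a library as estimated from transcript length and depth. It passed the filter only through the 1 day libraries. Cxcl9, an interferon-induced attractant of T cells, was lower at 1 day (0.989 ± 0.129 against 1.86 ± 0.206 FPKM, -0.52 log2).

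In the interleukin 6 and STAT3 list, 3 of 11 genes were higher and 0 lower. Socs3, the feedback inhibitor of STAT3 signalling, was at 1.68, 2.57 and 2.84 FPKM at 1 day and at 1.16, 1.11 and 1.12 FPKM at 1 week (0.64 log2). Osmr, the oncostatin M receptor, and the kinase Pim1 rose by 0.43 and 0.46 log2, and lost their calls without any 1 of 3 and of 4 libraries. Stat3 itself was not called (26.3 ± 1.41 against 22.4 ± 1.91 FPKM, adjusted p = 0.0913). The cytokine Il6 was at 0.161 to 0.303 FPKM at 1 day and 0.0606 to 0.0923 FPKM at 1 week, below the level required for the test. Of 12 genes of interleukin 1, TNF and NF-kB signalling, 2 were higher (Irf1 and Myd88) and 1 lower (Nfkbia, the NF-kB inhibitor, 13.2 ± 2.97 against 22.1 ± 3.86 FPKM). Irf1 and Myd88 rose by 0.60 and 0.35 log2, and both calls, like that of Nfkbia, were lost without any 1 of 3 libraries. Il1b was at 0.686, 1.77 and 1.94 FPKM at 1 day and at 1.38, 0.437 and 1.05 FPKM at 1 week, with overlap.

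Some genes of large relative change had levels too low for the set of largest changes and are named after their values were seen. Arg1 (arginase 1), an enzyme of alternatively activated macrophages, was at 1.21, 4.36 and 3.26 FPKM at 1 day and at 0.449, 0 and 0.0843 FPKM at 1 week. Sprr1a, a small proline-rich protein made by stressed cardiomyocytes, was at 2.86, 6.19 and 2.15 FPKM at 1 day and at 0.139, 0 and 0.319 FPKM at 1 week. Both were called higher (1.67 and 1.95 log2), and both passed the filter only through the 1 day libraries. Saa3, an acute phase serum amyloid, was at 0.861, 1.78 and 4.06 FPKM at 1 day and at 0.164, 0 and 0.485 FPKM at 1 week, without a test. In Arg1 and Sprr1a replicate 2 of 1 day was the highest library, and in Saa3 replicate 3.

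Metallothioneins, small proteins that bind zinc and copper and scavenge oxidants, were higher at 1 day. Mt2 was at 90.7, 100 and 80.4 FPKM at 1 day, at 28.1, 20.8 and 22.4 FPKM at 1 week and at 14.6, 35.7 and 32.1 FPKM at 8 weeks. The 1 day libraries were all above the rest, with a mean 3.81-fold that of 1 week (1.89 log2). Mt1 was at 260 ± 9.08 FPKM against 130 ± 12.8 FPKM (1.00 log2), and the paralogs Mt1 and Mt2 may share some reads. Slc39a14, a zinc and iron importer, rose by 0.48 log2. These 3 were the called genes among 7 tested of the metallothionein and zinc list. The core of the metal response element, TGCNCNC on either strand, occurs 6 times in the promoter of Mt2 and 3 times in that of Mt1. Since the same letters occur in 50.4% of all promoters, the 3 close-set copies of Mt1 are shown as an example, at chr8:94179046-94179118 on the plus strand of GRCm38.p6, with the element in capitals.
Mt1: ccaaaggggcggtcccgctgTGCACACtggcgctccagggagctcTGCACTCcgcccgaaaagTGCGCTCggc

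Of 23 tested NRF2 targets, iron genes and glutathione peroxidases, 10 were higher, 1 was lower and 12 were not called at 1 day, with a median of 0.22 log2. The number of higher genes fell to 5 without 1 day replicate 2, to 7 in a model of the 6 libraries alone and to 2 when the infarct libraries were added. Srxn1 (sulfiredoxin) rose by 0.64 log2, Gclm, the regulatory subunit of glutathione synthesis, by 0.62, Nqo1, a quinone reductase, by 0.52 and Gpx3, the secreted glutathione peroxidase, by 0.52. The ferritin subunits Ftl1 and Fth1, which store iron, rose by 0.45 and 0.26. Gpx4, the peroxidase that reduces lipid peroxides in membranes, was at 323 ± 13.7 FPKM at 1 day and 340 ± 20.7 at 1 week and was not called (-0.07 log2, limma adjusted p = 0.465). Hmox1, haem oxygenase 1, narrowly missed the threshold at 5.07 ± 1.10 against 3.44 ± 0.543 FPKM.

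Tfrc, the transferrin receptor through which cells take up iron (chr16:32608896-32632794), was the lower member. It was at 11.1, 7.73 and 10.2 FPKM at 1 day, 26.2, 25.7 and 22.6 FPKM at 1 week and 18.5, 19.0 and 20.5 FPKM at 8 weeks. The 3 libraries of 1 day were below all others, and the mean of 1 week was 2.56-fold that of 1 day (-1.28 ± 0.11 log2, adjusted p = 3.98e-05). The direction was thus opposite to that of the ferritins.

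Matrix genes formed the clearest group of lower genes among the lists used here, which were chosen with earlier results known. Of 31 tested, 21 were lower and 2 higher at 1 day than at 1 week, with a median of -0.55 log2. Between 16 and 24 were lower when a library was left out, and 24 under each of the other scalings. When the infarct libraries were added to the model, 3 were lower and 1 higher, and the cause of this drop was not tested. Against 8 weeks 13 were higher and 1 lower at 1 day, where 25.3% of all genes were higher and 3.53% lower. Matrix levels were thus highest at 1 week among the sham stages for most of the called genes. Summed over the 35 genes of the list, the level was 446 to 559 FPKM at 1 day, 633 to 812 FPKM at 1 week and 388 to 419 FPKM at 8 weeks, although these sums include Spp1.

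Eln (elastin, chr5:134702595-134747368, overlapping the predicted gene Gm30003) was at 8.78, 10.7 and 12.1 FPKM at 1 day. It was at 45.1, 49.2 and 37.4 FPKM at 1 week and at 9.21, 7.55 and 9.17 FPKM at 8 weeks, so that 1 week stood apart from both other stages. The mean of 1 week was 4.17-fold that of 1 day (-1.96 log2, adjusted p = 1.32e-05), and the difference between 1 day and 8 weeks was not called (0.25 log2, adjusted p = 0.13). Mfap4, a microfibril-associated protein that binds elastin, was at 3.84, 3.18 and 3.87 FPKM at 1 day, 16.8, 13.4 and 16.4 FPKM at 1 week and 3.73, 2.27 and 3.39 FPKM at 8 weeks (-1.83 log2 against 1 week). Postn (periostin), which marks activated fibroblasts, was at 8.76 ± 0.426 FPKM at 1 day, 25.9 ± 3.28 at 1 week and 6.13 ± 0.521 at 8 weeks. It was lower than at 1 week by -1.46 log2 and higher than at 8 weeks by 0.46 log2. Sfrp2, a secreted modulator of Wnt signalling made by fibroblasts, was at 1.28 ± 0.334 FPKM at 1 day and 5.97 ± 0.643 at 1 week (-1.62 log2).

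Fibrillar collagens changed by about 1 log2. Col3a1 was at 36.8 ± 4.91 FPKM at 1 day, 81.9 ± 5.82 at 1 week and 26.4 ± 0.0358 at 8 weeks (-1.14 log2 against 1 week). Col1a1 and Col1a2, the chains of type I collagen, were lower by -1.13 and -1.04 log2. Lox, which cross-links collagen and elastin, was at 1.41 ± 0.312 against 3.26 ± 0.706 FPKM (-0.82 log2). Cthrc1, a protein of activated fibroblasts, was at 0.396 ± 0.168 FPKM at 1 day, 3.39 ± 0.830 FPKM at 1 week and 0.0891 ± 0.0229 FPKM at 8 weeks. The basement membrane chain Col4a1 was lower by -0.42 log2, while Col4a2 and Sparc were not called (adjusted p = 0.0588 and 0.0746). The 2 members that were higher at 1 day were Spp1 and Mmp3, a matrix-degrading metalloproteinase (3.45 ± 0.671 against 1.63 ± 0.208 FPKM, 0.75 log2).

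Of 10 general fibroblast markers, 1 was lower at 1 day (Smoc2, -0.39 log2, a call lost without 1 day replicate 2), and the median was -0.04 log2. Their summed level was 678 to 927 FPKM at 1 day and 720 to 932 FPKM at 1 week. Of 9 mural cell markers 0 were called by limma and 0 had an unadjusted p below 0.05, with sums of 216 to 275 and 205 to 257 FPKM. Of 12 endothelial markers, 1 was lower (Cldn5, a tight junction protein, 11.8 ± 1.81 against 22.7 ± 5.79 FPKM), and this call was lost without any 1 of 3 libraries. Without 1 week replicate 1, 3 were higher and 1 lower.

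**Figure D4:**
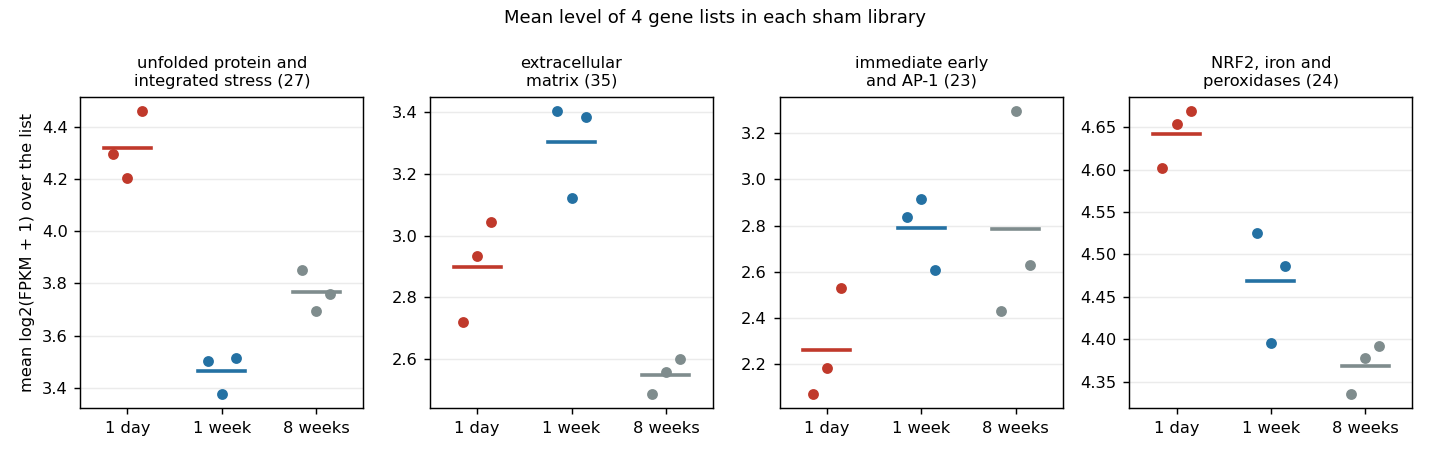
Mean of log2(FPKM + 1) over the members of 4 gene lists in each sham library, with the number of genes in brackets; axes do not start at 0. Points are libraries and lines are means of 3; the unfolded protein list is highest at 1 day in all 3 libraries, the matrix list highest at 1 week, and the immediate early list has 1 high library at 8 weeks.

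Immediate early genes, which are switched on within minutes of a stimulus and also respond to tissue handling, were lower at 1 day in part. Of 17 tested, 6 were lower, 1 was higher and 10 were not called, with a median of -0.68 log2. This count rested on few libraries, since 1 gene was lower without 1 day replicate 1, without 1 day replicate 2 or without 1 week replicate 2. Nr4a1, an orphan nuclear receptor, was at 2.08, 2.34 and 8.88 FPKM at 1 day and at 19.9, 23.8 and 13.2 FPKM at 1 week, and ranged from 7.27 to 36.9 FPKM at 8 weeks. Replicate 3 of 1 day was the closest to the later stages. The fall was -2.06 ± 0.53 log2 (limma adjusted p = 0.0303), and the call was lost without any 1 of 5 of the 6 libraries, with adjusted p up to 0.104. Egr1, a zinc finger factor (3.00, 3.37 and 5.62 against 14.3, 24.3 and 11.2 FPKM, -1.78 log2), and the kinase Sik1 (-1.22 log2) lost their calls without any 1 of 3 and of 4 libraries.

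Dusp1, a phosphatase that switches off MAP kinases, kept its call without each library. It was at 15.6, 17.9 and 31.9 FPKM at 1 day and at 55.8, 63.5 and 54.0 FPKM at 1 week (-1.43 log2, adjusted p = 0.00279). Zfp36, which destabilises cytokine mRNA, was lower by -1.03 log2, a call lost without any 1 of 4 libraries, Klf4 by -0.75 and Jun by -0.68. Without 1 day replicate 1, Dusp1 was the only lower gene left in the list, so the calls of Klf4 and Jun were lost as well. Fos was not called, at 2.62 ± 2.51 against 6.05 ± 2.76 FPKM (adjusted p = 0.203). Ier3 was the higher member, at 18.2 ± 1.84 FPKM at 1 day and 11.3 ± 1.92 at 1 week (0.65 log2). Apold1, an immediate early gene of endothelial cells (1.85, 1.64 and 3.49 against 12.2, 10.2 and 12.2 FPKM, -1.95 log2), and Cyr61, a matrix-associated target of mechanical signalling (13.8, 15.0 and 15.8 against 33.2, 40.9 and 33.4 FPKM, -1.21 log2), fell as well and kept their calls without each library. The predicted gene 8430408G22Rik, which the naming rule left out, had a larger fall than any named gene (-2.11 log2, adjusted p = 0.000785).

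Of 11 glucocorticoid targets, 2 were lower and 0 higher at 1 day than at 1 week. Sgk1, a kinase that regulates ion transport, was at 19.99 ± 3.46 against 40.3 ± 5.81 FPKM (-0.98 log2) and the clock gene Per1 at 3.23 ± 0.693 against 5.91 ± 0.939 FPKM (-0.71 log2). Against 8 weeks 8 of the 11 were lower and 1 higher, where 3.53% of all genes were lower and 25.3% higher. Zbtb16 and Fkbp5, which respond strongly to the hormone, were highest at 8 weeks. Zbtb16 was at 2.77 ± 0.685 FPKM at 1 day, 2.15 ± 0.243 FPKM at 1 week and 16.6 ± 3.90 FPKM then, and Fkbp5 at 3.48 ± 0.545, 2.24 ± 0.409 and 8.52 ± 2.46 FPKM. Of 18 clock genes, 2 were higher and 1 lower than at 1 week, and 7 higher and 4 lower than at 8 weeks, where 25.3% and 3.53% of all genes were. The output gene Dbp was at 16.4 ± 2.01, 20.3 ± 6.58 and 4.66 ± 1.41 FPKM, and Arntl (Bmal1) at 3.72 ± 0.113, 3.26 ± 0.447 and 6.29 ± 0.611 FPKM, from the earliest stage to the latest. The hour of collection is not given in the sources used here, and its part in these values was not tested.

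Some contractile and stress genes of the ventricle differed between the stages. Of 15 ventricular markers, 3 were lower at 1 day. Mybpc3, a thick filament protein, was at 470, 453 and 402 FPKM at 1 day and 622, 714 and 745 FPKM at 1 week (-0.65 log2), cardiac actin (Actc1) was lower by -0.51 log2 and the light chain Myl2 by -0.30. The call of Actc1 was lost after quantile normalization and in the authors' normalized values (limma adjusted p = 0.146 and 0.182). Under both of these, 1 ventricular marker was higher, and Myl2 had a change of exactly 0. A gene of the same rank in every library gets the same value from quantile normalization, so this 0 cannot decide the call of Myl2. After median-ratio scaling 3 ventricular markers were lower and 0 higher. Actc1 also lost its call without any 1 of 3 libraries and Myl2 without 1 day replicate 2, which left 1 lower marker. Of 15 stress and stretch genes, 3 were higher (Fhl1, Ankrd2 and Timp1) and 1 lower (Cyr61). Which cells these changes came from was not tested. Fhl1, a LIM protein of the stretch response, was at 79.6 ± 13.5 FPKM against 32.4 ± 2.15 at 1 week and 32.0 ± 0.870 at 8 weeks (1.26 log2), and the stretch-responsive Ankrd2 at 1.83 ± 0.594 against 0.172 ± 0.196 FPKM. Bnip3, a mitochondrial receptor of mitophagy, was at 106, 101 and 100 FPKM at 1 day and 56.3, 51.7 and 53.3 FPKM at 1 week (0.92 log2). The natriuretic peptide gene Nppa was not called (223 ± 50.1 against 177 ± 39.3 FPKM, adjusted p = 0.251).

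Energy metabolism changed at single genes. Ucp3, a mitochondrial carrier that follows fatty acid supply (chr7:100472991-100486432), was at 6.41, 7.03 and 6.55 FPKM at 1 day, 19.7, 19.8 and 32.5 FPKM at 1 week and 4.49, 6.42 and 13.7 FPKM at 8 weeks (-1.67 log2 against 1 week). The mean of 1 week was 3.60-fold that of 1 day. Of 25 fatty acid oxidation genes, 2 were lower (8.0%) and 1 higher (4.0%) at 1 day, beside 3.27% and 8.50% of all genes. Cpt1a, the liver form of the enzyme that admits fatty acids to mitochondria, was lower by -0.47 log2, while the regulator Ppara was higher by 0.49 log2. Of 22 glycolysis genes, 3 were higher (Pgam1 by 0.48 and the glucose transporter Slc2a1 by 0.32 among them) and 5 lower (Pfkfb1 by -0.57 and Eno3 by -0.40 among them). The count of lower glycolysis genes was 1 without 1 week replicate 3. Of 46 oxidative phosphorylation genes 0 were called by limma, 3 had an unadjusted p below 0.05, and up to 3 were lower under other scalings. Atp5b, a subunit of ATP synthase, was at 2131 ± 49.8 and 2084 ± 106 FPKM.

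Of 14 ubiquitin ligase and autophagy genes, 5 were higher (35.7%) and 0 lower, beside 8.50% and 3.27% of all genes. Among them were Fbxo31 (0.40 log2), the protease Ctsl (0.39) and Map1lc3b (0.30), which encodes LC3. Of 26 genes of potassium, sodium and calcium handling, 4 were higher (15.4%) and 3 lower (11.5%). The inward rectifier channels Kcnj2 and Kcnj5 rose by 0.62 and 0.54 log2 and the calcium channel subunit Cacnb2 by 0.54, while the sodium channel subunit Scn4b was lower by -0.36, a call lost without 1 week replicate 2. Of 75 cytosolic ribosomal proteins, 2 were higher and 0 lower (Rpl10 by 0.28 and Rps26 by 0.22), and between 0 and 14 were higher when a library was left out. Many pseudogenes are near copies of these genes, so their values are uncertain. Against 8 weeks, where 25.3% of all genes were higher, 56 of the 75 were higher. Of 19 genes of ribosome biogenesis 0 were called by limma and 5 had an unadjusted p below 0.05. Npm1 (nucleophosmin) was at 82.5 ± 2.76 and 74.9 ± 4.38 FPKM.

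A few vascular and proliferation genes were lower. Of 14 angiogenesis genes, 3 were lower, 1 was higher and 10 were not called, with a median of -0.06 log2. Over all genes 3.27% were lower and 8.50% higher. Apln (apelin), a peptide of the vascular endothelium, was at 1.83 ± 0.311 FPKM at 1 day and 5.46 ± 0.486 at 1 week (-1.19 log2), and the Notch ligand Dll4 and the receptor Nrp2 were lower by -0.48 and -0.51 log2. Angpt1, a ligand that stabilises vessels, was at 18.7 ± 2.31 FPKM at 1 day, 10.1 ± 0.577 at 1 week and 6.66 ± 0.826 at 8 weeks (0.82 log2 against 1 week). Of 13 cell cycle genes that passed the filter, 3 were lower (Ccnd1 by -0.60, Rrm2 by -0.32 and Mcm2 by -0.30 log2), and 0 were lower without 1 day replicate 2. Rrm2 lost its call without any 1 of the 6 libraries, and Mcm2 without any 1 of 5. Most of the 30 genes of the cell cycle list were below the level required for the test. Without the filter on low values, and with a filter over all 18 libraries, 16 were lower and 0 higher, with a median of -0.31 log2. Over all genes, 425 of 16407 and 449 of 12858 were lower under these filters. The genes so added lie near the floor in sham. The filter over 18 libraries can admit them through infarct libraries, where the list summed to 254 to 319 FPKM at 1 week. In sham it summed to 64 to 72 FPKM at 1 day and 77 to 95 FPKM at 1 week. Of 29 interferon genes 1 was higher (Iigp1, 0.41 log2) and 1 lower (Ifit2, -0.32). Without 1 week replicate 1 these counts were 4 and 1, and without 1 week replicate 2 they were 0 and 5, so that the direction rested on single libraries. Iigp1 lost its call without any 1 of 3 libraries. Of 6 MHC class II genes 1 was lower (H2-Eb1, -0.50), of 10 complement genes 1 was higher (C3ar1, 0.58) and of 13 cholesterol synthesis genes 1 was higher (Mvd, 0.37, a call lost without any 1 of 4 libraries).

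The lists for rarer cell types had 1 or 2 tested members each. Tnni2, a troponin of skeletal muscle, was at 2.09 ± 0.532 against 1.20 ± 0.168 FPKM (0.48 log2). Cidea, of adipocytes, was at 18.5 ± 1.79 against 14.6 ± 0.643 FPKM (0.32 log2). Kit, of mast cells, was at 0.722 ± 0.204 against 1.35 ± 0.153 FPKM (-0.45 log2). Each of these calls was lost without at least 3 of the single libraries. Alas2 of erythroid cells, Wt1 of the epicardium and the atrial Myl4 were not called, with adjusted p between 0.261 and 0.802. No lung epithelium marker was in the table.

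Whether a change between the stages differed in infarcted ventricles was tested in a model of all 18 mRNA libraries. The difference was called for 7648 genes (70.4%), with a median over all genes of -0.52 log2, and for 20 of the 24 genes of largest change in sham. The marker sums of the MI libraries stood far from those of sham at 1 day, with 6546 to 10442 FPKM for neutrophil markers and 15580 to 19258 FPKM for ventricular cardiomyocyte markers. Their part in these differences was not tested.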

How the data were processed

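The authors sequenced mRNA libraries prepared with a TruSeq kit, which does not mark strand. Per the labels, TopHat2 2.0.13, Bowtie2 2.2.3, Cufflinks 2.2.1 and build mm10 were used. They deposited FPKM for 16415 genes in 18 mRNA libraries, without read counts, and normalized log2 columns derived from these, which the authors had brought to nearly the same distribution. The FPKM are relative to all mapped fragments of a library, so an abundant group of genes shifts the values of all others. The deposited fold changes, p-values, means and deviations of the authors' own MI comparisons were not used, nor were the small RNA files. Of the genes, 32 have no symbol and 2 are at 0 throughout.

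Samples were grouped by their labels. log2(FPKM + 1) was fitted with limma 3.58.1 (R 4.3.3, intensity trend) in the 9 sham libraries, with 3 groups and 6 residual degrees of freedom, for genes that reached 1 FPKM in 3 or more of the 9. Some genes reached this in 1 stage only, among them Spp1, Chil3, Ccr2, Cxcl5, Ankrd2, Arg1 and Sprr1a at 1 day and Cthrc1 at 1 week. A gene of low level without such a rise was not tested, so the filter favours calls of this kind. Contrasts were 1 day minus 1 week and 1 day minus 8 weeks, adjusted over all 10857 tested genes. An exact permutation test of 3 against 3 libraries cannot give a p below 0.1, so none is given. The difference between MI and sham was fitted over 18 libraries with 12 residual degrees of freedom. p-values measure the spread between libraries of pooled tissue. The fit was tested on simulated data. Depth was estimated from the smallest steps of low FPKM values and transcript lengths.

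The genes were described in 43 lists (17 of cell type markers, 26 of pathways). The members and lists were chosen with earlier results of these data known. Named genes are the 12 largest rises and falls among called genes without overlap and with a mean of at least 5 FPKM in the higher group, without histone, haemoglobin, immunoglobulin, small RNA and predicted genes, Xist, Tsix and 4 genes of the Y chromosome; up to 4 called members of each list; and members needed to follow a pathway. The result for 1 named gene is left out here. Positions and promoter windows are from RefSeq GRCm38.p6, the same assembly as mm10, where 10838 of the tested genes were found. Without strand, reads of a gene and of one that overlaps it cannot be told apart. Of the named genes this touches Timp1 (Syn1), Eln (Gm30003), Postn (Gm31095), Apold1 (Gm36428), Sik1 (Gm41564), Pdia4 (Mir704), Myl2 (Ccdc63), Eno3 (Pfn1), Map1lc3b (Zcchc14) and Pfkfb1 (Apex2) among others. Alternatives were other pseudocounts, filters, scalings, sets of libraries, no trend, the replicate number as a block and leaving out each library. Python 3.11.15 with pandas 2.3.3 and matplotlib 3.10.9 was used.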

Additional observations from a re-analysis of the deposited data

Results flagged for a closer look

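Of the 24 genes with the largest change between the sham stages, 20 changed differently in MI ventricles by the limma test of the difference (adjusted p below 0.05). The values are the log2 change from 1 week to 1 day in MI minus that in sham. The change itself was not tested in MI. It had the other sign in MI for Spp1 (difference -6.26, from 4.96 in sham and -1.30 in MI), Serpina3n (-4.14, -1.68 in MI) and Lgals3 (-2.37, -0.85 in MI), which rose at 1 day in sham. The same held for Apold1 (3.24, 1.29 in MI), Egr1 (2.63, 0.85 in MI), Ucp3 (2.23, 0.56 in MI), Tfrc (3.09, from -1.28 in sham and 1.80 in MI) and Sik1 (2.57, 1.35 in MI), which fell. The MI change was near 0 for Pdia4 (-2.07, -0.20 in MI), Nr4a1 (2.13, 0.08 in MI) and Dusp1 (1.69, 0.26 in MI), while the median MI change over all genes was -0.46. For the ER genes Sdf2l1 (-1.51), Manf (-1.60) and Creld2 (-0.75) the rise at 1 day was in the same direction and smaller in MI. For Lcn2 (2.42) and Mt2 (2.11) it was larger in MI. The matrix genes Eln (-5.48), Mfap4 (-5.99), Sfrp2 (-7.11) and Postn (-5.44) were lower at 1 day in both, by more in MI. Against a median difference of -0.52 over all genes, these values describe named genes that had been chosen by their sham change, which is itself a term of the difference.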

How the results depend on the processing

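Genes below 1 FPKM rest on few fragments, and 3 pools a stage limit the precision. Main counts are 923 higher and 355 lower at 1 day than at 1 week, 3125 called against 8 weeks and 7648 called for the MI minus sham difference. With a mean of at least 5 FPKM, 195 were lower, 1925 called against 8 weeks and 4110 for the difference, with fewer genes tested. Quantile normalization gave 574 higher and 585 lower and 1550 against 8 weeks, median-ratio factors 536, 539 and 1583, and the authors' normalized values 573, 581 and 1548. The 6 libraries alone gave 610 higher. All 18 libraries gave 139 higher, 57 lower and 414 against 8 weeks, and 49 of the 89 called named genes lost their call there. The cause was not tested. Leaving out each library gave 456 to 931 higher, 167 to 354 lower, 1546 to 3459 against 8 weeks and 7131 to 7579 for the difference (the last chosen after seeing the data). Higher genes fell to 456, 485 and 570 without 1 day replicate 2, 1 day replicate 3 and 1 week replicate 2. Lower genes fell to 202, 167 and 213 without 1 day replicates 1 and 2 and 1 week replicate 3, and calls against 8 weeks to 1970 and 1546 without 1 day replicates 2 and 3. The replicate block gave 747 higher, 310 lower, 2799 against 8 weeks and 7600 for the difference. Deviations of same-numbered libraries of 1 day and 1 week from their stage means had correlations of -0.372, -0.119 and -0.337. Pairs of unlike number had -0.0265 to 0.368. Deviations from a mean of 3 are bound to each other, so these values cannot decide whether the numbers pair the libraries. Of 89 called named genes, 34 lost their call in none of the 17 other settings that tested them. With a mean of at least 5 FPKM only 75 named genes were tested. Without each library, 21 of the 24 largest changes kept their call.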
